A study of Mus musculus with 16 samples.

Results

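The smooth-muscle type contractile genes described here are 9 genes of the actin and myosin machinery, Acta2, Actg2, Actc1, Tagln, Myl9, Cnn1, Cnn2, Tpm1 and Tpm2. They were chosen by measured values, their low array signal in ground-state cultures relative to serum cultures in these same samples, and their probes were found through the RefSeq accession that the scanner files give for each probe. The 9 genes are among 15518 genes tested and have 15 probes, 1 each for Acta2, Actg2, Actc1, Tagln, Myl9 and Cnn1, 2 each for Cnn2 and Tpm2, and 5 for Tpm1. All 9 passed the filter on dim probes, which a gene passes when some group has it well above background on each of its 4 arrays.

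Total RNA of 16 mouse pluripotent stem cell lines of strain 129/Ola was measured on 16 Agilent arrays of 1 colour, with 4 groups of 4 lines, between passages 17 and 28. The 2iSB_LIF lines and the 2i_LIF lines came from embryos before implantation and have the label ground state. Their media held LIF and 2i, which inhibits the kinases MEK and GSK3, and the 2iSB_LIF lines also received SB431542, which blocks the type I receptors for Activin, Nodal and TGF-beta. The EpiSC lines came from the epiblast of embryos after implantation, grew with bFGF and Activin A, and have the label primed. The LIF_serum lines came from embryos before implantation, grew in LIF and serum, and have the label naive. In the description field, LIF_serum lines 3 and 4 carry the code LSFF and lines 1 and 2 the code LS, and the labels do not say what the codes stand for. No feeder layer is named in the labels of any group. All 4 groups share the strain, the labelling kit and the array design, and each array is 1 line, so the 4 arrays of a group measure the spread between lines.

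The contractile machinery of smooth muscle slides actin filaments against myosin when the myosin light chain is phosphorylated. Its genes are known targets of serum response factor (SRF), which binds the CArG box and works with coactivators of the myocardin family. The coactivators MRTF-A and MRTF-B enter the nucleus when actin polymerises, and serum and TGF-beta are textbook inducers of these genes in fibroblasts and smooth muscle. The same genes are expressed by myofibroblasts and by many cultured fibroblasts, so they do not mark smooth muscle alone.

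The stretches of DNA just before the gene starts are shown because the 9 genes moved together and because SRF binds the CArG box. Windows of 250 bases before the annotated start were read from the RefSeq table of build GRCm38.p6, which gave one for 7 of the 9 genes, all but Tagln and Actg2. A CArG box, which reads the same way on both strands, lay in the windows of 3 of the 7 genes, Actc1, Myl9 and Cnn2, and in 1.47% of all 32851 windows of that length. With 1 G or C allowed in the A/T core, 4 of the 7 windows held a match, Acta2 being added, against 8.59% of all windows. The windows of Cnn1, Tpm1 and Tpm2 held neither form. The 4 windows with a match follow, each 5′ to 3′ on the strand of its gene, with CArG boxes and the near matches in capitals. Acta2 is at chr19:34255374-34255623 on the minus strand, Actc1 at chr2:114052876-114053125 on the minus strand, Myl9 at chr2:156775214-156775463 on the plus strand and Cnn2 at chr10:79988350-79988599 on the plus strand. The boxes in capitals that keep the full motif are CCAAATAAGG in Actc1, from 47 to 38 bases before the start, CCTAATAAGG in Myl9, from 161 to 152 bases before it, and CCTTATAAGG in Cnn2, from 56 to 47 bases before it. Acta2 and Actc1 both carry the near match CCCTATATGG. A match is a description of the letters and no measurement of binding.
Acta2: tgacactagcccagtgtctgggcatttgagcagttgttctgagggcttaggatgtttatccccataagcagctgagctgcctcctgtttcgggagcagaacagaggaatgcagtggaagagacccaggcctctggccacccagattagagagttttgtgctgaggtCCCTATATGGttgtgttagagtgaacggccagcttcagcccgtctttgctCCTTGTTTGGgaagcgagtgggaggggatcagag
Actc1: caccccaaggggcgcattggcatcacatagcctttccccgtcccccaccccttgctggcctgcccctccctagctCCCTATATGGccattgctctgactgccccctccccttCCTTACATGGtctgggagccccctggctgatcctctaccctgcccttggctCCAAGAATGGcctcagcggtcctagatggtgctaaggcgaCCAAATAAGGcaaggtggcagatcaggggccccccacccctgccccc
Myl9: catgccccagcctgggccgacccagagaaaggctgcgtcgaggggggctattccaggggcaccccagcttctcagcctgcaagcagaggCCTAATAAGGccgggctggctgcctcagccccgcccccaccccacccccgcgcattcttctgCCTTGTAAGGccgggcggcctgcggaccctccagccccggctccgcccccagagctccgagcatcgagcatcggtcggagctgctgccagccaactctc
Cnn2: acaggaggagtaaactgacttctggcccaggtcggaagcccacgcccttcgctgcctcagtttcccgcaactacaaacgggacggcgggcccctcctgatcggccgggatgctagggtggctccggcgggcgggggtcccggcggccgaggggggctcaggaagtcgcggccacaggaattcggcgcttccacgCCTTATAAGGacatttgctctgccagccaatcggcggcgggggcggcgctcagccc

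Between 51.5% and 63.6% of probes were well above background per array, and none of the 15 probes was saturated. The arrays lay on 2 slides, with 2iSB_LIF lines 1, 2 and 4, 2i_LIF lines 1, 2 and 3 and LIF_serum lines 1 and 2 on slide 1, and all EpiSC lines with the others on slide 2. The 2 serum codes therefore coincide with slide and cannot be told apart from it. Each value below is log2 of the processed signal less the 75th percentile of its array, so that a level of 0 is the signal of that percentile, and levels of different probes are not set against each other. As a check of the labelled cell type, Pou5f1, the transcription factor Oct4 of pluripotent cells, lay between 5.37 and 5.72 in 2iSB_LIF, 5.25 and 5.92 in 2i_LIF, 5.60 and 5.75 in EpiSC, and 5.92 and 6.39 in LIF_serum. All 8 pluripotency markers examined were well above background on every ground-state and serum array, while in EpiSC 7 were and Dppa4, a marker of naive cells, was on none.

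The contractile actins, which form the filaments that myosin pulls on, were low in ground-state lines and high in EpiSC and serum lines. Acta2, smooth muscle alpha-actin, was at −4.02, −3.14, −5.15 and −4.08 in 2iSB_LIF lines 1 to 4, at −3.90, −3.47, −1.58 and −4.69 in 2i_LIF lines, at 6.16, 5.79, 6.02 and 5.27 in EpiSC lines and at 4.39, 3.84, 3.94 and 3.68 in LIF_serum lines. Every EpiSC line was above every serum line, and every serum line far above every ground-state line. All but 1 array, that of 2iSB_LIF line 3, were well above background. The mean of 2iSB_LIF lines was 267-fold below that of serum lines and the mean of 2i_LIF lines 166-fold below it.

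Actc1, the alpha-actin of embryonic and adult heart, which is also made early in other muscle, was at −7.36, −7.16, −5.92 and −5.62 in 2iSB_LIF lines, none of them well above background. It was at −6.67, −5.63, −3.49 and −6.69 in 2i_LIF lines, where line 3 alone was well above background. EpiSC lines had 5.49, 5.27, 4.95 and 4.93, and serum lines −1.07, 0.60, 2.09 and 1.98. The serum lines coded LSFF, the last pair, were above those coded LS, and all lay below the EpiSC lines. Against the background floor, Actc1 was at least 85.0-fold lower in 2iSB_LIF than in serum. This bound sets the mean of the bright group against the higher of the dim array's own signal and the lowest signal well above background on that array, averaged over the dim arrays.

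Actg2, the gamma-actin of enteric smooth muscle, was the member whose serum lines lay farthest apart between the codes. It was at −7.38, −4.63, −3.46 and −4.10 in 2iSB_LIF lines and at −5.87, −5.25, −6.28 and −7.08 in 2i_LIF lines, where no array was well above background. EpiSC lines had 1.26, 0.52, 0.97 and 0.20. Serum lines had 1.43 and 1.00 with the code LS and −3.31 and −3.42 with the code LSFF. The LSFF lines were next to the brightest 2iSB_LIF line, while the LS lines lay within or above the range of the EpiSC lines. Of the 2iSB_LIF arrays, that of line 1 was not well above background. In 2i_LIF the signal was at least 17.7-fold lower than in serum, at least 3.63-fold lower than in LSFF lines alone and at least 86.7-fold lower than in LS lines alone. The muscle actins are closely related genes, and cross-hybridisation between Acta2, Actg2, Actc1 and Acta1 is uncertain and was not tested.

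The myosin and actin-binding members followed the same order of groups. Tagln, which codes for transgelin (SM22), an actin-binding protein and early smooth muscle marker, was at 0.19, 0.48, −0.41 and 0.02 in 2iSB_LIF lines, at −0.14, 0.17, 0.97 and −0.36 in 2i_LIF lines, at 7.69, 7.49, 7.65 and 7.30 in EpiSC lines and at 5.34, 5.33, 6.02 and 6 in serum lines. Myl9, the regulatory light chain whose phosphorylation starts smooth muscle contraction, was at −1.05, 0.45, −1.44 and −1.59 in 2iSB_LIF lines, at −1.63, 0.16, −0.14 and 0.20 in 2i_LIF lines, at 6.16, 5.82, 5.75 and 5.51 in EpiSC lines and at 4.77, 4.79, 5.21 and 5.24 in serum lines. For both genes the 3 sets of lines, ground state, serum and EpiSC, did not overlap, and the lines of either ground-state medium covered the same range. Cnn1, calponin 1, which binds actin and restrains myosin in differentiated smooth muscle, was at −2.81, −4.75, −5.26 and −4.30 in 2iSB_LIF lines, at −4.71, −5.35, −3.13 and −2.86 in 2i_LIF lines, at 5.41, 5.65, 5.48 and 5.39 in EpiSC lines and at 2.94, 3.36, 4.62 and 4.74 in serum lines. The arrays of 2iSB_LIF line 3 and 2i_LIF line 2 were not well above background for Cnn1. It showed a 293-fold lower mean in 2iSB_LIF than in serum and a 244-fold lower one in 2i_LIF.

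Cnn2 and the tropomyosins had smaller differences between ground-state and serum lines. Cnn2, calponin 2, which is also found in many non-muscle cells, was at 0.70, 1.34, 0.23 and 0.54 in 2iSB_LIF lines, at 0.38, 1.32, 1.27 and 0.96 in 2i_LIF lines, at 4.27, 4.40, 4.29 and 3.98 in EpiSC lines and at 3.13, 2.97, 3.6 and 3.4 in serum lines. Tpm2, beta-tropomyosin, which lies along the actin filament, was at 0.87, −0.11, −1.17 and −0.07 in 2iSB_LIF lines, at −0.53, −0.82, 0.52 and 1.13 in 2i_LIF lines, at 4.61, 4.53, 4.65 and 4.51 in EpiSC lines and at 3.30, 3.27, 3.51 and 3.42 in serum lines. Cnn2 was 5.95-fold lower in 2iSB_LIF and 4.90-fold lower in 2i_LIF than in serum, and Tpm2 11.2-fold and 9.85-fold lower. Tpm1, alpha-tropomyosin, had the smallest differences and is described by probe further on.

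**Figure D1:**
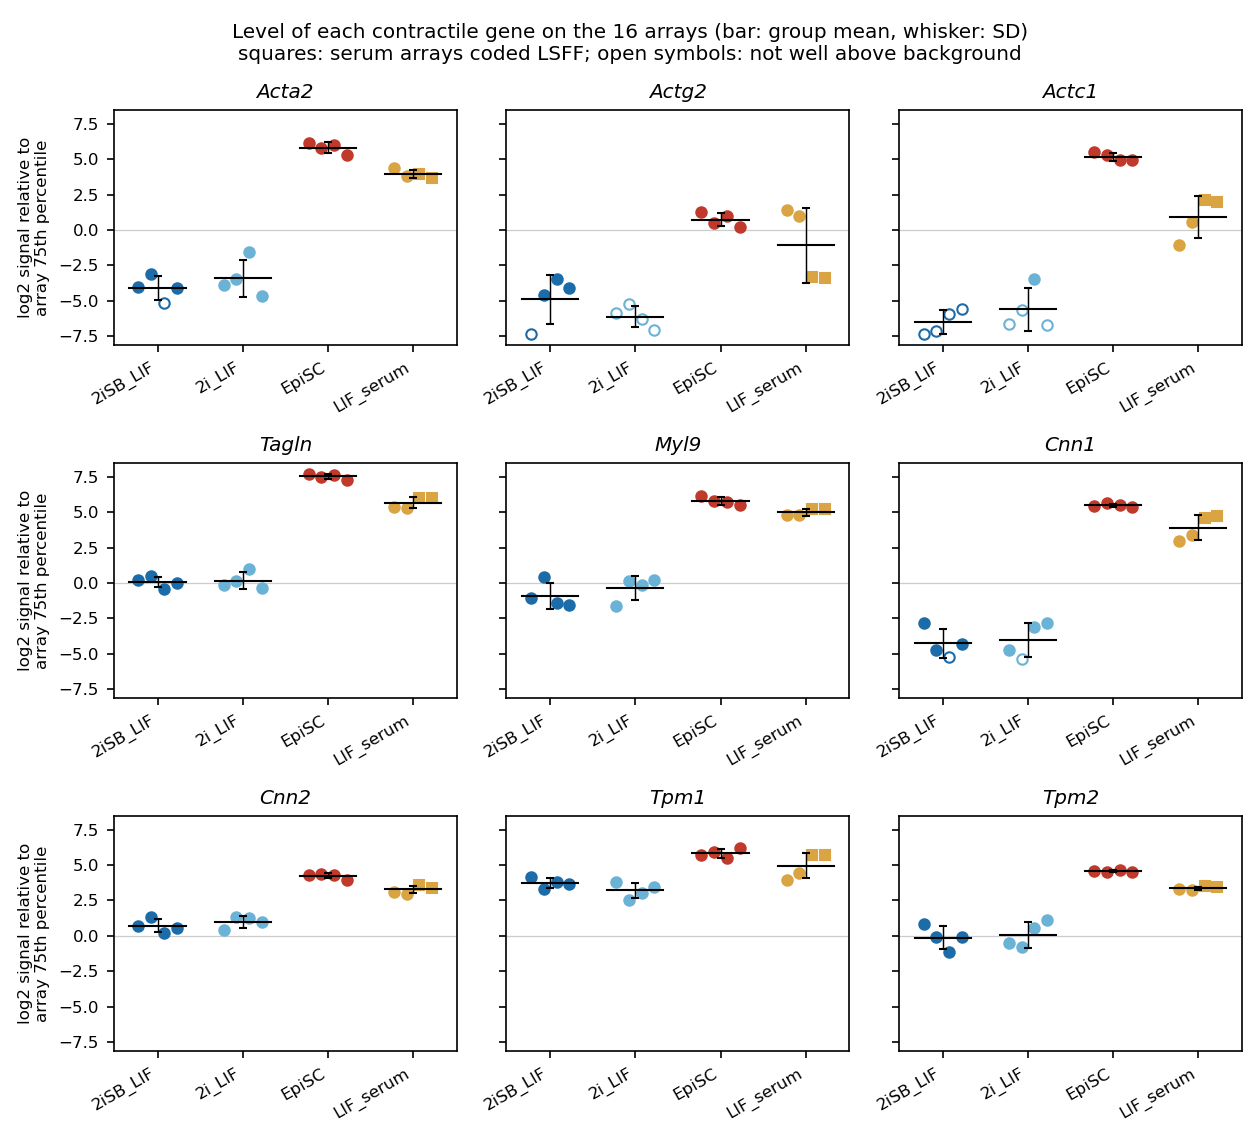
Log2 level of the brightest probe of each of the 9 genes, relative to the 75th percentile of its array, on all 16 arrays, with group means (bars) and SD (whiskers, n = 4 lines). Squares are serum lines coded LSFF and open symbols are arrays not well above background; group means are lowest in the ground-state groups in every panel, lines overlap with serum lines in the Tpm1 panel, and the serum lines of Actg2 separate by code.

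The comparison of ground-state with serum lines chose the 9 genes, so its values are a description and were given no test. All 9 were at least 2-fold lower in 2iSB_LIF than in serum, where 15.2% of all genes tested were, and all 9 in 2i_LIF, where 14.1% were. The median log2 difference was −5.60 for 2iSB_LIF minus LIF_serum, with a range of −8.20 to −1.24, and −5.35 for 2i_LIF minus LIF_serum, with a range of −7.93 to −1.75. Over all genes the median was 0.02 in both. The 4 lines of 2iSB_LIF lay below all 4 serum lines for 8 genes, Tpm1 being the exception, where 15.4% of all genes were lower with no overlap, and those of 2i_LIF for all 9, where 14.1% were. Against LS lines alone 8 of the 9 were at least 2-fold lower in each ground-state group, Tpm1 being at −0.49 for 2iSB_LIF, and 8 were in 2iSB_LIF within slide 1 and within slide 2. With the serum lines of either code alone, the median for 2iSB_LIF was −5.94 against LSFF lines and −5.69 against LS lines, and that for 2i_LIF −5.58 and −5.17. Within slide 1, where serum lines are LS, the medians were −5.51 and −5.03, and within slide 2, where they are LSFF and each ground-state group has 1 array, −6.42 and −5.02. In RNA from whole cultures, fewer cells that express a gene and less of its RNA in each cell cannot be told apart.

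Fibroblast markers moved with these genes in part. All 20 listed markers, collagens, small proteoglycans and other genes of fibroblasts, were tested, and 17 were called lower in 2iSB_LIF and 15 in 2i_LIF than in serum, with median log2 differences of −3.57 and −2.98. A call here is a limma adjusted p under 0.05 with a difference of at least 2-fold, and 13.3% and 12.1% of all genes were called lower, and 6.81% and 6.25% higher, in the 2 comparisons. The summed linear level of the 20 markers, in multiples of the 75th percentile of each array, was 3.42 to 5.48 in 2iSB_LIF, 3.72 to 4.99 in 2i_LIF, 228 to 355 in EpiSC, 17 to 18.2 in LSFF serum lines and 114 to 146 in LS serum lines. The same sum over the 9 contractile genes was 16.5 to 23.2 in 2iSB_LIF, 11.4 to 17.4 in 2i_LIF, 426 to 535 in EpiSC, 219 to 222 in LSFF lines and 134 to 135 in LS lines. In LSFF lines the marker sum was thus below that of LS lines and the contractile sum above it. A sum weighs the brightest probes most, and Actg2 and Acta2 had lower means in LSFF lines than in LS lines. Lum and Dcn, proteoglycans of connective tissue, were well above background on no array of either ground-state group (Dcn on 2i_LIF line 2 was an outlier spot and left out), and Lum and Lox on none of the LSFF arrays. Against LSFF lines alone, the marker median was −1.80 for 2iSB_LIF and −1.82 for 2i_LIF, and against LS lines alone −5.25 and −4.87.

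The split of the serum lines by code was tested with 5 group means, 2 lines in each code, and with the spread shared over all 16 arrays. Of the 9 genes, 1 was called higher and 1 lower in LSFF than in LS lines, where 2.99% of all genes were called higher and 5.45% lower. Actg2 was lower in LSFF by a log2 difference of −4.58 (SE 0.92, limma adjusted p = 0.008), a 23.9-fold lower mean. Tpm1 was higher in LSFF by 1.5 (SE 0.36, adjusted p = 0.019) on the probe that stands for the gene. Of its other probes, that at 1.48 was also called, and those at 0.81, 0.67 and 0.01 were not. A fit with slide as a block took its slide term from the ground-state arrays alone, of which only 2iSB_LIF line 3 and 2i_LIF line 4 were on slide 2. On those arrays Acta2 was at −5.15 and −4.69, and Actc1 was not well above background. In that fit Actg2 stayed called at −4.89 (adjusted p = 0.034) and Tpm1 was at 1.30 (adjusted p = 0.11). Tagln was called higher there at 1.34 (adjusted p = 0.044). Both calls were lost when serum line 1, 3 or 4 was left out, with differences of −4.63 to −4.36 and adjusted p of 0.059 to 0.079 for Actg2, and differences of 1.27 to 1.51 and adjusted p of 0.10 to 0.18 for Tpm1.

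The other 7 genes were not called between the codes. Actc1 differed by 2.27 (SE 0.89, adjusted p = 0.11) and Cnn1 by 1.53 (SE 0.77, adjusted p = 0.21), LSFF minus LS. Tagln, Cnn2, Myl9 and Tpm2 differed by 0.67, 0.45, 0.44 and 0.18. Acta2 differed by −0.31 (95% interval −1.97 to 1.35), and by 1.25 with slide as a block (adjusted p = 0.34). Both LSFF lines were above both LS lines for 7 genes and below them for Actg2, where 41.8% of all genes were higher and 34.6% lower with no overlap.

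Of the 20 fibroblast markers, 13 were called lower in LSFF lines and none higher, with a median log2 difference of −3.45, beside a median of 0.45 for the 9 contractile genes and 0.07 for all genes. With slide as a block, whose slide term rests on ground-state arrays alone, the medians were −3.01 for the markers and 1.25 for the contractile genes. S100a4, a calcium-binding protein of fibroblasts, was at −2.71 and −2.66 in LSFF lines and at 4.22 and 3.87 in LS lines. Col1a2, a chain of type I collagen, was at 1.22 and 1.35 in LSFF lines and at 5.47 and 5.08 in LS lines. Col3a1, type III collagen, differed by −6.05, and Lox, which crosslinks collagen, was at least 25.9-fold lower in LSFF lines (adjusted p = 0.00017). S100a4, Lox and Col3a1 had the largest measured differences of the 20 markers. Col1a2 differed by −3.99, less than Col6a3 (−5.39), Prrx1 (−5.12), Col6a1 (−4.63) and Dcn (−4.27). The markers not called were Pdgfra (0.13), Pdgfrb (−0.29), Col5a1 (−0.65), Twist1 (−0.66), Thy1 (−0.78), Loxl1 (−0.88) and Col5a2 (−1.52). Of the 9 contractile genes, Actg2 alone was called lower with the markers. Myh11, the smooth muscle myosin heavy chain, was on neither LSFF array and on both LS arrays well above background, and against the floor it was at least 1.59-fold lower in LSFF lines (adjusted p = 0.0098), which does not reach the 2-fold minimum. The part of fibroblast RNA in the levels of the 9 genes was not tested beyond these values.

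**Figure D2:**
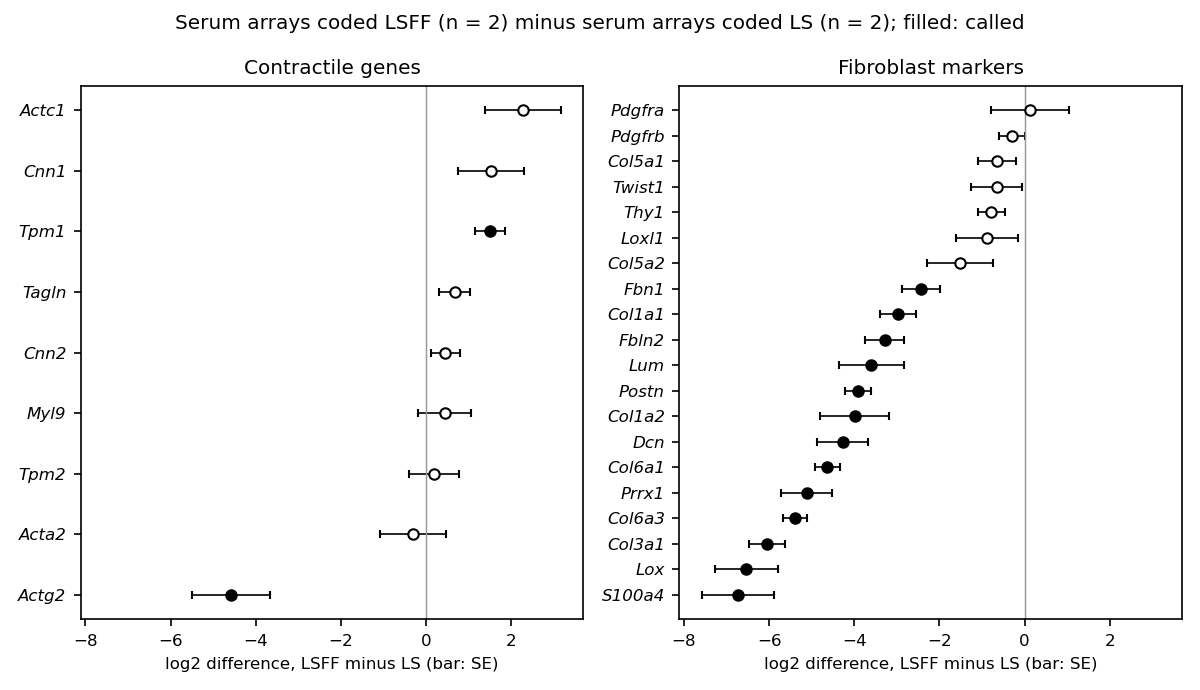
Log2 difference between serum lines coded LSFF (n = 2) and LS (n = 2), with its SE, for the 9 contractile genes (left) and 20 fibroblast markers (right). Filled points are called; 13 markers are called lower, while Actg2 is the contractile gene called lower and Tpm1 the one called higher.

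EpiSC lines had more signal than serum lines for all 9 genes, and 5 of them were called higher, where 18% of all genes were, and 15.7% were called lower. These comparisons were not used to choose the genes, but they share arrays with those that were. Actc1 rose most, by 4.26 on the log2 scale (SE 0.74, limma adjusted p = 0.00022), a 19.1-fold higher mean in EpiSC. Tagln rose by 1.86 (SE 0.28, adjusted p = 5.5e-05) and Acta2 by 1.84 (SE 0.53, adjusted p = 0.0091). Cnn1 rose by 1.57 (SE 0.60, adjusted p = 0.039) and Tpm2 by 1.20 (SE 0.41, adjusted p = 0.022). The call for Cnn1 was lost with slide as a block (1.22, adjusted p = 0.12), when any 1 EpiSC line was left out, and without serum line 1 or 2 (adjusted p of 0.064 to 0.12).

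The other 4 genes were higher in EpiSC by 0.81 to 1.81 and not called. Cnn2 differed by 0.96 (SE 0.25, adjusted p = 0.0045), just under the 2-fold minimum. Tpm1 differed by 0.85 (adjusted p = 0.067) and Myl9 by 0.81 (adjusted p = 0.13), though all EpiSC lines were above all serum lines for Myl9. Actg2 differed by 1.81 (adjusted p = 0.16), with the serum lines split. The difference was 4.10 against LSFF lines alone (adjusted p = 0.00074) and −0.48 against LS lines alone (adjusted p = 0.64). Without serum line 1 Actg2 was called (2.65, adjusted p = 0.044), and Tpm1 was called without serum line 3 (1.1, adjusted p = 0.027) or 4 (1.11, adjusted p = 0.025). Cnn2 passed the 2-fold minimum without serum line 3 or 4 or EpiSC line 4. The lines of the 2 groups did not overlap for 7 of the 9 genes, where 32.8% of all genes were higher with no overlap.

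Against LSFF lines alone, 4 of the 9 genes were called higher in EpiSC, Actc1, Actg2, Acta2 and Tagln, with a median over the 9 of 1.11. Against LS lines alone 7 were called, all but Actg2 and Myl9, with a median of 1.60. All EpiSC lines lay on slide 2 with the LSFF lines, so the LSFF values are also the values within 1 slide, where 5 were called in a fit of that slide alone. The median of the fibroblast markers in EpiSC was 5.04 higher than in LSFF lines and 1.5 higher than in LS lines, and 17 of 20 were called higher against all serum lines (median 3.24). With arrays centred on their medians instead of the 75th percentile, all genes had a median difference of 0.61 in place of 0.07, and all 9 contractile genes were called higher (median 2.10). Of all called genes 53.4% were higher in EpiSC as scaled here, and 75.9% with that centring.

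All 9 genes were lower in each ground-state group than in EpiSC, with no overlap of lines. The ground-state arrays are those whose low signal chose the genes, so the adjusted p-values below are not independent of that choice. The rates over all genes were 20.1% called lower and 16.2% higher for 2iSB_LIF, 20.6% called lower and 16.9% higher for 2i_LIF, and 29.2% and 30.1% lower with no overlap. The median log2 difference was −6.71 for 2iSB_LIF and −6.86 for 2i_LIF. Acta2 differed from EpiSC by −9.91 in 2iSB_LIF (SE 0.53, limma adjusted p = 9.9e-10) and by −9.22 in 2i_LIF (adjusted p = 2.1e-09). Tagln differed by −7.46 in 2iSB_LIF (SE 0.28, adjusted p = 1.9e-11) and by −7.37 in 2i_LIF (adjusted p = 2.3e-11). Cnn1 differed by −9.76 and −9.49, Myl9 by −6.71 and −6.16, Tpm2 by −4.69 and −4.50, Cnn2 by −3.53 and −3.25, and Tpm1 by −2.09 and −2.60, in 2iSB_LIF and 2i_LIF in turn, with adjusted p between 4.2e-09 and 0.00023. Actc1 was at least 1620-fold lower in 2iSB_LIF than in EpiSC (adjusted p = 6e-09), and its measured difference in 2i_LIF, where 1 of 4 arrays was well above background, was −10.77 (adjusted p = 1.4e-08). Actg2 was at least 62.3-fold lower in 2i_LIF than in EpiSC (adjusted p = 5.9e-05), and its difference in 2iSB_LIF, where 3 of 4 arrays were well above background, was −5.63 (adjusted p = 0.00036). Actc1, Actg2 and Cnn1 passed the filter on dim probes through EpiSC and serum arrays and not through a ground-state group, so that their lower level there is in part set by the filter. Within slide 2 alone, an alternative added after the data were seen, all 9 were called in both, with medians of −7.24 and −7.81. Of the fibroblast markers 19 of 20 were called lower in both, with medians of −7.66 and −7.13.

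Addition of SB431542 to 2i gave no called difference in any of the 9 genes, nor an unadjusted p under 0.05. Of all genes 13 were called by limma, 2 higher and 11 lower (0.0129% and 0.0709%), and 867 had an unadjusted p under 0.05. The widest 95% interval of the log2 difference, 2iSB_LIF minus 2i_LIF, was that of Actg2, −1.03 to 3.48, around 1.23, and the narrowest that of Cnn2, −0.81 to 0.25, around −0.28. The intervals were −1.83 to 0.45 for Acta2, −2.48 to 0.69 for Actc1, −0.68 to 0.50 for Tagln, −1.48 to 0.37 for Myl9, −1.55 to 1.01 for Cnn1, −0.29 to 1.31 for Tpm1 and −1.06 to 0.68 for Tpm2. Each interval holds 0 and also differences as large as its bounds. The lines of the 2 groups overlapped for every gene, and the adjusted p was 1 for each. In 2i_LIF, without SB431542, Actg2 was above background on none of the 4 arrays, Actc1 on 1 and Cnn1 on 3.

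**Figure D3:**
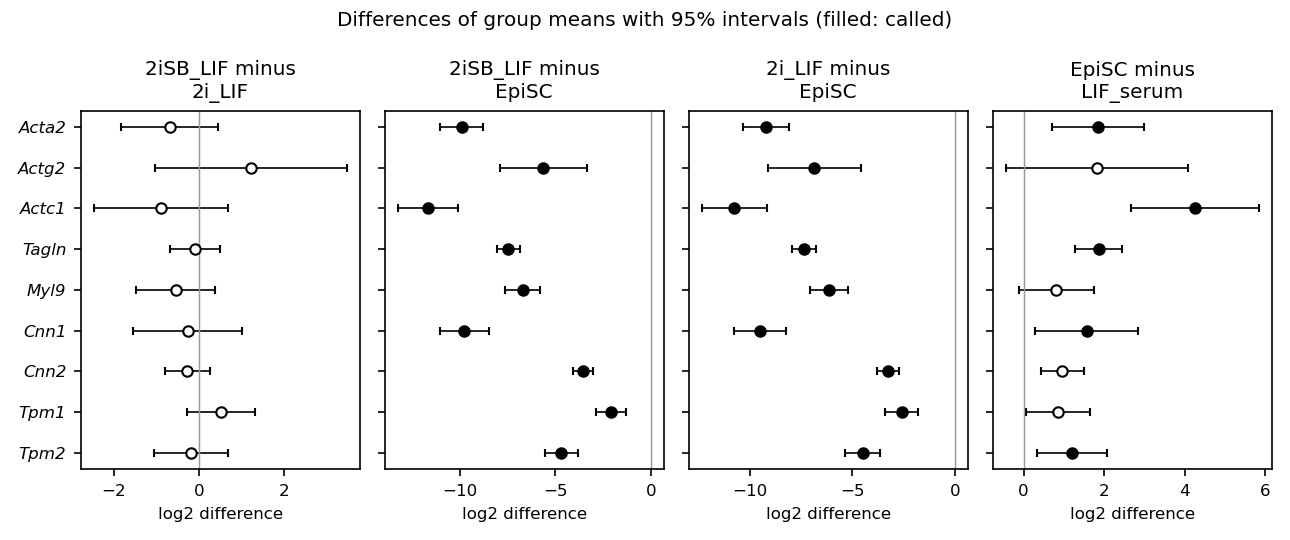
Log2 differences of group means for the 9 genes with 95% intervals of the limma fit (n = 4 lines a group). The 4 comparisons did not choose the genes but share arrays with those that did. Filled points are called; all 9 are called lower in both ground-state groups against EpiSC, 5 are called higher in EpiSC against serum, and none is called between 2iSB_LIF and 2i_LIF.

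The 5 Tpm1 probes, which target different transcripts, did not behave alike. Tropomyosin genes are known for alternative promoters and exons that give muscle and non-muscle forms. The 2 probes designed to NM_001164248, one of which stands for the gene, gave EpiSC minus LIF_serum differences of 0.85 and 0.87 (adjusted p over all 33276 tested probes 0.072 and 0.067), and were called higher in LSFF than in LS lines by 1.5 and 1.48. The probe to NM_001164249 gave 2.21 (SE 0.21, adjusted p = 8.2e-07) and the probe to NM_001164251 gave 1.75 (SE 0.23, adjusted p = 2.2e-05), and both were called in EpiSC. The probe to NM_001164249 was at 5.39 to 5.52 in EpiSC lines and at 2.77 to 3.69 in serum lines, while the first NM_001164248 probe was at 5.50 to 6.19 in EpiSC lines and at 3.98 to 5.72 in serum lines, so the ranges overlapped for the second and not for the first. The probe to NM_001164255 was nearly level, with means of 0.57 ± 0.23 in 2iSB_LIF, 0.62 ± 0.28 in 2i_LIF, 0.87 ± 0.16 in EpiSC and 0.73 ± 0.08 in LIF_serum (SD, n = 4 lines each). Its log2 differences were −0.31 for 2iSB_LIF and −0.25 for 2i_LIF against EpiSC, where the other 4 probes were called lower by 2.09 to 4.17. For Tpm1 the result for the gene thus depends on the probe.

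**Figure D4:**
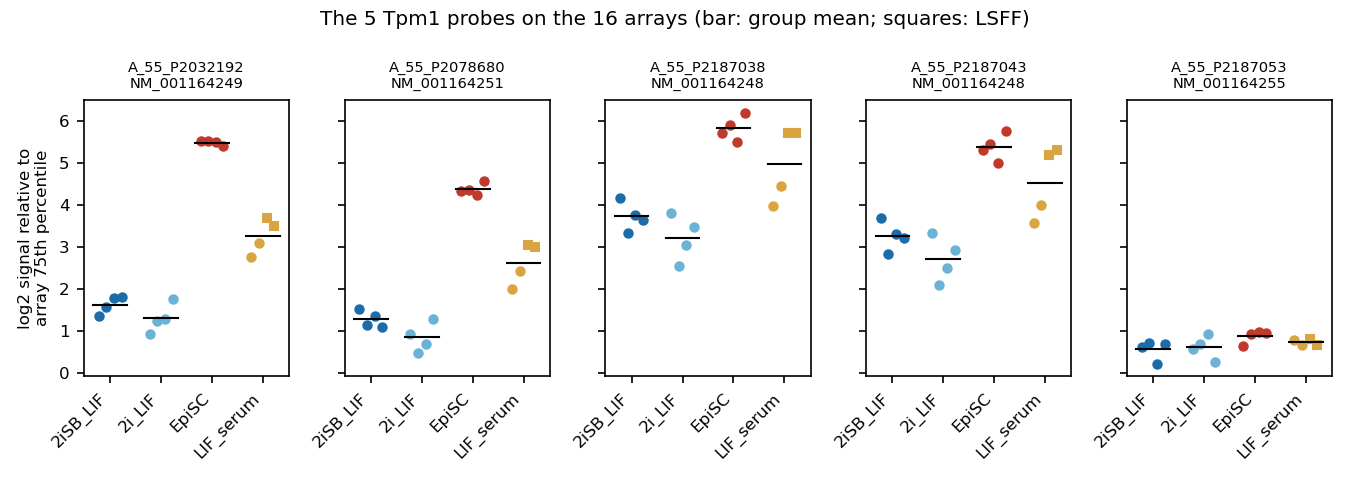
Log2 level of each of the 5 Tpm1 probes, relative to the 75th percentile of its array, on the 16 arrays, with the probe name and target transcript above each panel and group means as bars. All panels but one separate ground-state lines from EpiSC lines, and the probe to NM_001164255 is nearly level.

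Between EpiSC and serum the 2 probes of Cnn2 and of Tpm2 gave the same direction. Between the serum codes the brighter Cnn2 probe differed by 0.45 and the dimmer by −0.06, LSFF minus LS, and neither was called. For Cnn2 the brighter probe differed by 0.96 and the dimmer by 0.48 (adjusted p = 0.12) between EpiSC and serum. For Tpm2 the 2 probes differed by 1.20 and 1.24, both called.

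Across the 16 arrays the 9 genes rose and fell together, which in part follows from how they were chosen. The Pearson correlation of a gene with the mean of the 9 standardised genes was highest for Tagln (0.998) and lowest for Actg2 (0.856) and Tpm1 (0.889). The lowest pairwise value was 0.64, between Actg2 and Tpm1, and the highest 0.99. These are descriptions over 16 arrays that fall into separate groups and share slides. Among the 10 other genes whose levels followed the mean of the 9 most closely over the 16 arrays were Prss23 (0.993), a serine protease, Ecscr (0.992), an endothelial cell surface protein, Piezo2 (0.991), a mechanically gated ion channel, Cysltr1 (0.990), a leukotriene receptor, Fkbp10 (0.989), a collagen chaperone, Maf (0.988), a transcription factor, App (0.988), the amyloid precursor protein, Nnat (0.987), an imprinted gene, and Mfap2 (0.987), a microfibril protein. Prss23, for example, averaged −7.26 ± 0.27 in 2iSB_LIF, −6.94 ± 0.56 in 2i_LIF, 4.24 ± 0.28 in EpiSC and 1.12 ± 0.57 in LIF_serum (SD, n = 4 lines each). Its ground-state means lay below −6.17, the lowest background floor of any array, so they stand for signal near background. The ground-state means of Piezo2, Cysltr1 and Maf lay below it as well.

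Of 17 actin and myosin genes of non-muscle cells tested, 3 were called higher in EpiSC than in serum, where 18% of all genes were. They were Cald1, the actin-binding caldesmon (2.03), Vcl, the adhesion protein vinculin (1.78), and Tpm4, a non-muscle tropomyosin (1.31). Cald1 and Myh10, a non-muscle myosin heavy chain, were the 2 called lower in either ground-state group than in serum, with differences for 2iSB_LIF of −2.09 and −1.32. Of all genes 13.3% were called lower there in 2iSB_LIF and 12.1% in 2i_LIF. Actb, cytoplasmic beta-actin, averaged 8.68 ± 0.25 in 2iSB_LIF, 8.68 ± 0.23 in 2i_LIF, 8.98 ± 0.14 in EpiSC and 8.97 ± 0.15 in LIF_serum (SD, n = 4 lines each), and was not called in any of these comparisons. The median of the list was −0.50 for 2iSB_LIF and −0.49 for 2i_LIF against serum, and 0.48 for EpiSC against serum. Against EpiSC 9 of the 17 were called lower in each ground-state group, with medians of −1.06 in 2iSB_LIF and −1.10 in 2i_LIF. The rates over all genes were 20.1% and 20.6%. Cald1 differed there by −4.12 and −3.40, Vcl by −2.27 in both, and Tpm4 by −2.08 and −1.90.

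Other smooth muscle genes were mixed. Of 15 tested, 8 were called lower in 2iSB_LIF and 8 in 2i_LIF than in serum, where 13.3% and 12.1% of all genes were. In EpiSC 6 were called higher and 4 lower than in serum, where 18% of all genes were higher and 15.7% lower. The largest differences for 2iSB_LIF were those of Acta1, the skeletal alpha-actin also placed in the striated muscle list (−6.89), Pdlim3, a protein of actin bundles (−4.35), Fhl2, a LIM-domain cofactor (−2.36), and Fhl1, its relative (−1.96). In EpiSC the called genes with the largest differences were Aoc3, an amine oxidase of smooth muscle and fat (−3.72), Pdlim7, a LIM-domain actin partner (2.31), Itga8, an integrin chain (2.24), and Fhl2 (2.00). Myh11, the most specific marker of mature smooth muscle here, was well above background on no ground-state array, on all 4 EpiSC arrays and on the 2 LS serum arrays, with an EpiSC minus LIF_serum difference of 0.15 (adjusted p = 0.83). Its EpiSC mean of −5.18 lay near the floors of the EpiSC arrays, −6.17 to −5.54, and the LSFF floors were higher, at −4.67 and −4.99. Myh11 is among the genes called lower in 2i_LIF than in serum (−1.65), a call that rests on values near background. Lmod1, a smooth muscle leiomodin, and Casq2, calsequestrin of heart and smooth muscle, did not pass the filter, being well above background on 1 and 2 of the 16 arrays at most.

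Of 17 heart and skeletal muscle genes tested, 3 were called higher and 8 lower in EpiSC than in serum, where 18% of all genes were higher and 15.7% lower. Among those called higher, Hand2 and Myod1 were well above background on no serum array. Against the floor they were at least 1.2-fold and 1.36-fold higher, which does not reach the 2-fold minimum. Myh6, the atrial myosin heavy chain, had the largest difference, −6.15, against 4.26 for Actc1, the cardiac actin. The list also had 8 genes called lower in 2iSB_LIF and 6 in 2i_LIF than in serum, where 13.3% and 12.1% of all genes were. Of 6 endothelial and pericyte markers tested, 1 was called higher and 2 lower in EpiSC than in serum, beside the same 18% and 15.7% of all genes. Against serum none was called in 2iSB_LIF, and 1 was called higher in 2i_LIF, where 6.25% of all genes were.

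A list of 11 tested genes held Srf, its coactivators Myocd, Mrtfa and Mrtfb, and other transcription factors such as Tead4, Klf5 and Prrx1. In 2iSB_LIF 2 were called higher than in serum, Mrtfb and Tead4, and 2 lower, Myocd and Prrx1. In 2i_LIF 2 were called higher, Klf5 and Tead4, and 2 lower, Myocd and Prrx1, beside the rates over all genes given above. Srf itself averaged 2.27 ± 0.36 in 2iSB_LIF, 2.08 ± 0.34 in 2i_LIF, 4.07 ± 0.14 in EpiSC and 1.98 ± 0.18 in LIF_serum (SD, n = 4 lines each). It was called higher in EpiSC, by 2.08 (SE 0.20, limma adjusted p = 7.2e-07), and its difference from serum was 0.29 in 2iSB_LIF and 0.10 in 2i_LIF, not called. Myocd, myocardin, the coactivator of smooth and heart muscle, was well above background on no ground-state array, on all EpiSC arrays and on 3 of 4 serum arrays. Against the floor it was at least 2.37-fold lower in 2iSB_LIF than in serum (limma adjusted p = 0.00047). In 2i_LIF it was at least 1.90-fold lower than in serum (adjusted p = 0.0047), which does not reach the 2-fold minimum. Mrtfa, the coactivator MRTF-A, differed from serum by 0.15 in 2iSB_LIF, 0.11 in 2i_LIF and 0.46 in EpiSC, none called. Mrtfb, the coactivator MRTF-B, was called higher in 2iSB_LIF than in serum, by 1.01 (limma adjusted p = 0.00017). Its differences from serum in 2i_LIF, 0.84, and in EpiSC, 0.93, were under the 2-fold minimum. Prrx1, a mesenchymal homeobox gene that is also one of the fibroblast markers, was the second gene called higher in EpiSC, by 4.10.

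Of 16 genes of TGF-beta family signalling, the pathway that SB431542 blocks, 6 were called lower and 2 higher in 2iSB_LIF than in serum, where 13.3% of all genes were lower and 6.81% higher. In 2i_LIF 6 were called lower and 2 higher as well, where 12.1% of all genes were lower and 6.25% higher, and none was called between 2iSB_LIF and 2i_LIF. In 2iSB_LIF the ligand Tgfb2 differed from serum by −4.04, the target Ccn2, a matricellular protein, by −2.97 and the ligand Tgfb3 by −2.49. In EpiSC 8 were called higher and 1 lower than in serum, where 18% of all genes were higher and 15.7% lower. Among them were the receptors Tgfbr2 (3.21) and Tgfbr3 (1.93), the ligand Tgfb2 (2.05), and Eng, endoglin, which was the one called lower (−2.04). Between the serum codes 2 were called lower in LSFF lines, where 5.45% of all genes were, Tgfb3 (−2.02) and Smad7 (−1.56), an inhibitory SMAD.

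**Figure D5:**
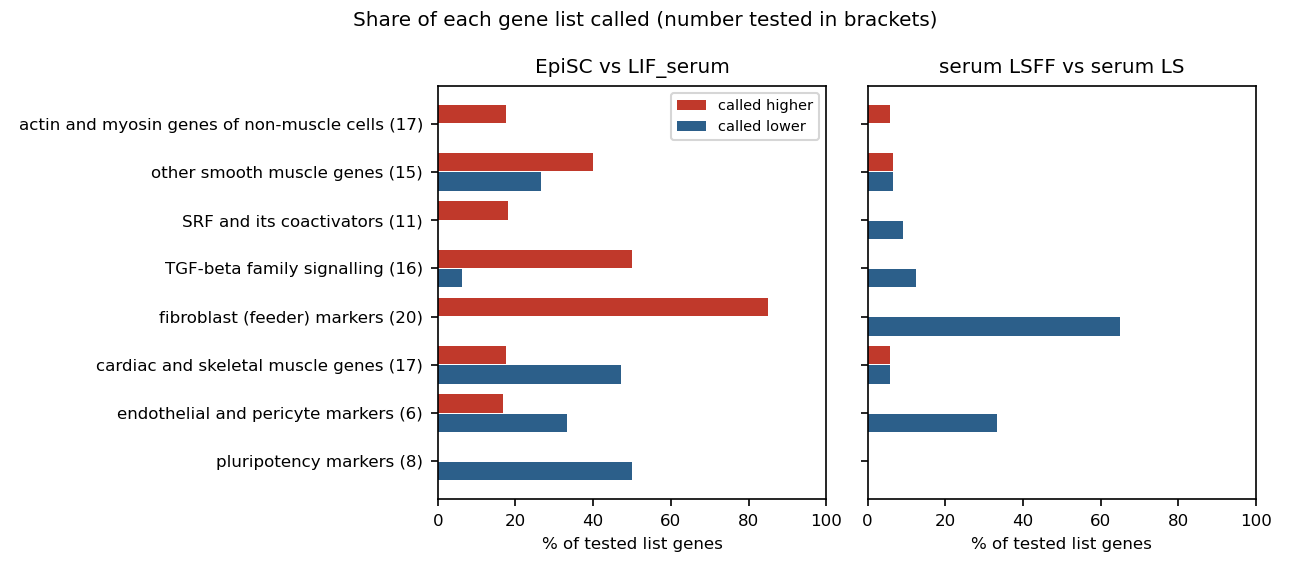
Percentage of the tested genes of each list called higher (red) and lower (blue), in EpiSC against LIF_serum (left) and in serum lines coded LSFF against LS (right), with the number tested in brackets. The fibroblast markers have the highest bars, 17 of 20 called higher in EpiSC and 13 of 20 called lower in LSFF lines. The list named for SRF and its coactivators also holds other transcription factors.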

How the data were processed

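Messenger RNA of 16 lines was measured on 1-colour Agilent arrays. Per the file headers, the authors deposited spot intensity as written by the scanner software, Agilent Feature Extraction 10.7.1.1, with build mm9, and the processed signal is background-subtracted. The authors also deposited a table of log2 values, used as an alternative, whose normalization no label or header gives. Probes were named through RefSeq accessions and a GRCm38.p6 table (27656 of 55681 probes matched). Spots marked as outliers were treated as missing.

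Signals were taken as log2 less each array's 75th percentile (646 to 1039). The brightest tested probe stood for its gene. Group means were fitted over all 16 arrays with limma 3.58.1 (lmFit, eBayes) in R 4.3.3 with data.table (version 1.17.8) and jsonlite 2.0.0, p-values were Benjamini-Hochberg adjusted over 15518 genes, and the fit was tested on simulated data. A call needed an adjusted p under 0.05 and at least 2-fold. The floor of an array, its lowest level among probes well above background, lay between −6.17 and −4.67. No column was left unmapped. The normexp alternative (offset 50) used the median signal, since the files hold no mean signal. The other alternatives changed normalization, filter, slide, replicate block, source of values, probe, passage, serum code and arrays. The members and the gene lists were chosen with earlier results of these data known. All 9 members were named in each comparison, up to 4 called genes of largest difference in each list, and the 10 genes that correlated best with the members, except that some genes these rules name are not reported here. The genes Actb, Col1a2, Myh11, Srf, Myocd, Mrtfa, Lum, Dcn, Pou5f1, Dppa4, Lmod1, Casq2 and Prss23 were singled out after their values were seen. So were Hand2, Myod1 and the fibroblast markers not called between the serum codes. Precision is limited by how many arrays there are.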

Additional observations from a re-analysis of the deposited data

How the results depend on the processing

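Between the ground-state groups and EpiSC all 9 genes were called under every alternative run, each with ground-state arrays that chose the genes. With normexp background correction the medians were −4.30 (2iSB_LIF against serum), −4.06 (2i_LIF against serum) and −6.02 (2i_LIF against EpiSC), and 4 of the 9 were called between LSFF and LS lines. Centring on the median gave 9 called in EpiSC against serum (median 2.10), medians of −7.24 and −7.40 for 2iSB_LIF and 2i_LIF against EpiSC, and 0.15 for Acta2 between LSFF and LS lines. It moved the median of all genes between LSFF and LS lines to 0.52, with 71.3% of called genes higher, against 35.4% as scaled here, 45.9% after quantile normalization and 47.0% in the deposited table. Against EpiSC it gave 25.5% and 25.1% higher for 2iSB_LIF and 2i_LIF, against 44.6% and 45%. With slide as a block the median was −7.47 for 2i_LIF against EpiSC and 1.25 between LSFF and LS lines, and Acta2 was at 1.25 there. The deposited table gave −6.17 for 2i_LIF against EpiSC, and the mean of all probes 1 gene called between the codes. With passage as a covariate, 1902 genes were called for 2iSB_LIF against serum and 42 for 2iSB_LIF against 2i_LIF, where Cnn1 was at 0.11, and the medians against EpiSC were −7.44 and −7.36 for 2iSB_LIF and 2i_LIF. Actg2 in EpiSC was at −0.48 against LS lines alone.

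Within slide 1, 1761 genes were called for 2iSB_LIF and 1686 for 2i_LIF against serum, and 2 between 2iSB_LIF and 2i_LIF, where Cnn1 was at 0.44 and Tpm2 at 0.51. Within slide 2, 4969 genes were called for 2iSB_LIF against serum (median −6.42). There 2iSB_LIF and 2i_LIF have 1 array each, assumed to vary like the other groups, 2236 genes and 4 of the 9 were called, and Actc1 was at 0.77. Against EpiSC within slide 2, added after the data were seen, the medians were −7.24 and −7.81. The cause of these shifts was not tested.

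With the replicate block, 8 genes were called between 2iSB_LIF and 2i_LIF and 345 between LSFF and LS lines, with none of the 9. The numbers share only a label, since 7 of 24 same-numbered pairs deviated together (correlation over 0.1, range −0.60 to 0.40) and 9 of the 24 correlated best with their own number.

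Leaving out 1 array at a time gave 9 to 27 genes called between 2iSB_LIF and 2i_LIF and 313 to 1703 between LSFF and LS lines, with 0 to 3 of the 9. Between 2iSB_LIF and 2i_LIF, Tagln ranged from −0.26 to 0.18, Cnn1 from −0.76 to 0.12 and Tpm2 from −0.52 to 0.16. Dim values enter some of the differences between ground-state and other lines. Actc1 was well above background on 1 array of 2i_LIF and none of 2iSB_LIF, and Actg2 on none and 3. Acta2 was well above it on 4 and 3 arrays, and Cnn1 on 3 of each group. How far dim values set the size of these differences was not tested.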
